A study of Mus musculus with 10 samples.

Results

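H3K4me3 promoter peaks were compared for 10 genes of the bone morphogenetic protein (BMP) pathway, out of 21755 protein-coding genes on chromosomes 1 to 19 and X. The genes were the ligands *Bmp2*, *Bmp4* and *Bmp7*, the type I receptor *Bmpr1a*, the signal transducer *Smad1*, the inhibitory SMAD *Smad6* and the targets *Id1*, *Id2*, *Id3* and *Id4*. They were chosen by name, with earlier results of these data known. A gene was counted as marked in a library where a peak reached by 1 bp or more into a promoter window of 1000 bp before and 100 bp after any TSS annotated for it (GENCODE release M21, GRCm38). Of the 100 combinations of gene and library, 69 held a promoter peak. In the other 31 the nearest peak lay between 26.2 and 1286.7 kb from the closest TSS of the gene.

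BMP ligands bind a complex of type I and type II receptors at the cell surface, the type I receptor phosphorylates SMAD1 and SMAD5, and these move with SMAD4 to the nucleus and act on target genes. The ID genes are classical targets and encode helix-loop-helix proteins without a DNA-binding domain that hold back basic helix-loop-helix factors, and *Smad6* is a target whose protein restrains the same signal. In the early mouse embryo *Bmp4* is known from the epiblast and the extra-embryonic ectoderm and *Bmp2* from the visceral endoderm. H3K4me3 lies at promoters of genes that are transcribed or poised, so a peak is a statement on the promoter and not on the amount of RNA.

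The cells were naive extra-embryonic endoderm (nEnd), a culture model of the primitive endoderm (PrE). They were made from 1 mouse ESC line carrying an OCT4-mCherry reporter, and the PDGFRA-APC+ cells of the differentiation were sorted and expanded on mouse embryonic fibroblasts (MEFs) in RACL, an RPMI medium with Activin A, CHIR99021 and LIF. Cells of all 3 populations shared this line and medium, to which no BMP ligand was added, and the labels give no treatment. FACS on OCT4-mCherry and on PDGFRA at the cell surface then separated Oct4+ nEnd (4 libraries), double positive (DP) nEnd (3 libraries) and Pdgfra+ nEnd (3 libraries). The comparison asked how the promoters of the pathway differ between the OCT4-expressing and the endoderm-like ends of the culture and the DP state that carries both markers. OCT4 and PDGFRA chose the cells, so the marks at *Pou5f1* and *Pdgfra* themselves are no finding.

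Coverage was not scaled between libraries and no read numbers accompany the peaks, and values are therefore percentiles within a library (depth unknown). The libraries held 3477 to 9144 peaks in Oct4+ nEnd, 7575 to 8836 in DP nEnd and 6510 to 10545 in Pdgfra+ nEnd. Of these, Oct4+ nEnd replicate 3 held the fewest peaks and Pdgfra+ nEnd replicate 2 the narrowest, with a median of 2204.5 bp against 3032.5 to 4222.5 bp in the others. Of the 10 genes, 8, 7, 4 and 4 were marked in Oct4+ nEnd replicates 1 to 4, 9, 9 and 8 in DP nEnd replicates 1 to 3, and 9, 5 and 6 in Pdgfra+ nEnd replicates 1 to 3. The number of genes marked moved with the number of peaks of a library, and its part in the differences between populations was not tested. With *Pou5f1* and *Pdgfra* left out, markers followed the labels. Every Oct4+ nEnd library carried a peak at all 5 other epiblast markers. Of the 5, 4 were marked throughout DP nEnd and 0 throughout Pdgfra+ nEnd, where 2 had a peak in at least 1 library. For the 6 other PrE markers the order was reversed, with all of them marked throughout DP and Pdgfra+ nEnd and 0 throughout Oct4+ nEnd, where 3 had a peak in at least 1 library. Of 15 fibroblast markers, which MEFs would carry, 14 were unmarked in all 10 libraries and *Twist1* was marked at or under the 13.0th percentile. In sorted populations, fewer cells with a mark and less of the mark per cell cannot be told apart.

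Promoter sequences from RefSeq (GRCm38.p6) matched 7 of the 10 genes. *Bmp2*, *Bmp7* and *Id1* had no entry. The 250 bases before the RefSeq start overlapped no annotated exon in *Bmp4* (chr14:46390670-46390919, minus strand), *Smad6* (chr9:64022060-64022309, minus strand) and *Id4* (chr13:48260866-48261115, plus strand). These are shown because they stand for a promoter with a strong peak in Oct4+ nEnd, one marked in every library and one with weak or no peaks. Capitals mark GGCGCC and GGAGCC, the GC-rich letters bound by SMAD1 and SMAD5, read on both strands (GGCTCC is GGAGCC on the other strand), and no match overlapped another.
Bmp4: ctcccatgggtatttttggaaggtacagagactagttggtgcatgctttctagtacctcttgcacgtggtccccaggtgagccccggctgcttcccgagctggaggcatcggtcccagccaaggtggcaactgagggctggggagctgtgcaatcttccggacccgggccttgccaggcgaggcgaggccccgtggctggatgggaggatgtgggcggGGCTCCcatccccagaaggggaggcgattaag
Smad6: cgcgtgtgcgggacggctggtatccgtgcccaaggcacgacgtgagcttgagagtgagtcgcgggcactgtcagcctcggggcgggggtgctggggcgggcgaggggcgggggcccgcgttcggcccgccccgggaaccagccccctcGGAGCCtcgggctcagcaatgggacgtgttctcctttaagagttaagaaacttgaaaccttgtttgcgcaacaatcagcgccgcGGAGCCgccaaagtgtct
Id4: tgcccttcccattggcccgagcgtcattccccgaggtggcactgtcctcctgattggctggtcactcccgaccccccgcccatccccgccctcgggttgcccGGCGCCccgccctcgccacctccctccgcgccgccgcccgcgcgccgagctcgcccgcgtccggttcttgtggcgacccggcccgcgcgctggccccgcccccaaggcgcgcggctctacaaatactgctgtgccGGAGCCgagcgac

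The window held 11 CpG in *Bmp4*, 27 in *Smad6* and 35 in *Id4*, against a median of 6 over all 32619 RefSeq promoters of the same length (quartiles 2 and 16). GGAGCC was found in 5 of the 7 promoters (*Bmp4*, *Smad6*, *Id2*, *Id3* and *Id4*) and in 26.1% of all of them, and GGCGCC in 3 of the 7 (*Bmpr1a*, *Id2* and *Id4*) and in 9.65% of all. The 7 windows held 11 to 36 CpG, and the shares over all promoters were not matched for that. Annotated exons held 250 of the 250 bases in *Id3*, 161 in *Id2*, 141 in *Bmpr1a* and 90 in *Smad1*. A match is a string of letters and not a site of binding. The *Bmp4* window was covered by the promoter peak in 7 of the 8 libraries that had one, the *Smad6* window in 10 of 10 and the *Id4* window in 5 of 5.

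**Figure D1:**
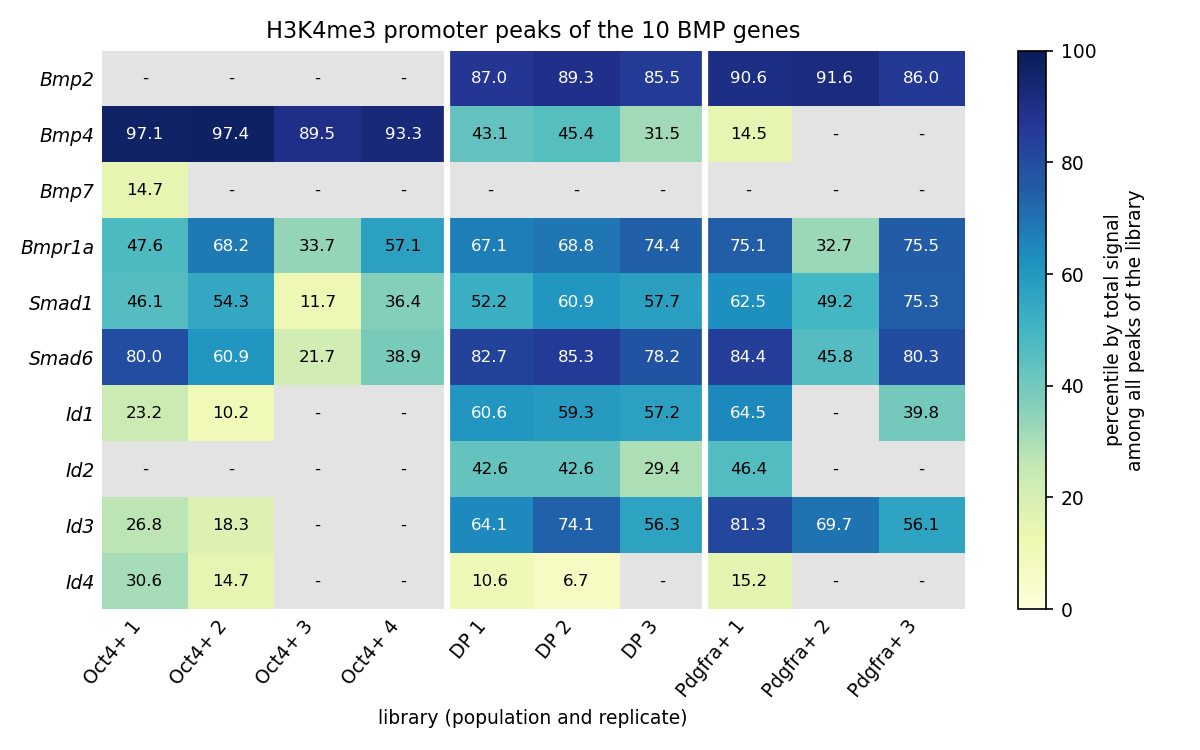
Percentile by total signal of the strongest promoter peak of each gene (rows) among all peaks of each library (columns), on a scale from 0 to 100, with grey cells and a dash where no peak was found. *Bmp4* is at 89.5 or above in the 4 Oct4+ nEnd libraries and *Bmp2* has no peak there, while *Bmp2* is at 85.5 or above in all DP and Pdgfra+ nEnd libraries.

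The ligand genes *Bmp4* and *Bmp2* were marked in opposite directions. *Bmp4* had a promoter peak near the top of the ranks in Oct4+ nEnd, a far weaker one in DP nEnd and one small peak in Pdgfra+ nEnd. *Bmp2* was unmarked in Oct4+ nEnd and strongly marked in DP and Pdgfra+ nEnd. The difference of *Bmp4* between Oct4+ and DP nEnd, where all libraries had a peak, passed the test across genes, and that of *Bmp2* is one of presence.

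*Bmp4* (ENSMUSG00000021835.15, chr14:46383520-46390669, minus strand, 4 TSS) encodes a secreted ligand of the TGFβ family. Its promoter peak stood at the 97.1, 97.4, 89.5 and 93.3th percentile by total signal in Oct4+ nEnd replicates 1 to 4. It stood at 43.1, 45.4 and 31.5 in DP nEnd replicates 1 to 3 and at 14.5 in Pdgfra+ nEnd replicate 1, with no peak in Pdgfra+ nEnd replicates 2 and 3. All 4 Oct4+ nEnd libraries were thus above all DP nEnd libraries, with a wide gap between the groups. In Oct4+ nEnd replicate 2 the peak ranked 215 of 8098.

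Over Oct4+ nEnd the percentile of *Bmp4* was 94.3 ± 3.73 (SD, n = 4) and over DP nEnd 40.0 ± 7.45 (SD, n = 3), a difference of 54.3 points. The exact two-sided permutation test gave p = 0.0286, the smallest that 4 against 3 libraries can give, in a family of 12 such tests and without adjustment. Without Oct4+ nEnd replicate 3 the difference was 55.9 points with an exact p = 0.1, again the smallest possible. Of the consensus lists, that of Pdgfra+ nEnd held no *Bmp4* promoter peak and the others did. The level in Pdgfra+ nEnd therefore rests on 1 library of 3.

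The peak was lower in DP nEnd by both measures of signal. It was 8508, 8493, 7497 and 7735 bp wide in the Oct4+ nEnd libraries and 7495, 6362 and 6850 bp in the DP nEnd libraries, longer than the 7150 bp gene in 5 of these 7 libraries. Its percentile by highest coverage, a measure that is not summed over the width, was 52.0, 46.5, 58.4 and 67.8 in Oct4+ nEnd and 2.37, 7.24 and 1.43 in DP nEnd. The percentile by total signal minus that by highest coverage was 38.2 ± 11.8 in Oct4+ nEnd (SD, n = 4) and 36.3 ± 5.55 in DP nEnd (SD, n = 3), so both fell by about as much, and width over the library median overlapped (1.88 to 2.47 against 1.51 to 1.91). In Pdgfra+ nEnd replicate 1 the peak was 2370 bp wide and ran from 1706 to 4075 bp after the annotated 5′ end, so it touched an internal TSS and not the first one. With the TSS of protein-coding transcripts alone, *Bmp4* was unmarked in all 3 Pdgfra+ nEnd libraries.

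*Bmp2* (ENSMUSG00000027358.6, chr2:133552159-133562885, plus strand, 1 TSS) encodes the ligand closest to BMP4 in sequence. It held no promoter peak in the 4 Oct4+ nEnd libraries, where the nearest peak lay 702.9, 703.6, 1286.7 and 703.8 kb away. Its percentile by total signal was 87.0, 89.3 and 85.5 in DP nEnd and 90.6, 91.6 and 86.0 in Pdgfra+ nEnd. The DP and Pdgfra+ nEnd ranges overlapped, with means of 87.3 ± 1.93 and 89.4 ± 3 (SD, n = 3 each) and an exact permutation p = 0.3, where 0.1 is the smallest possible. By highest coverage the peak was in the middle of its library, from 37.2 to 57.7 in DP nEnd and from 42.7 to 59.3 in Pdgfra+ nEnd. Its width was 4524 to 6500 bp in DP nEnd and 3612 to 4616 bp in Pdgfra+ nEnd.

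**Figure D2:**
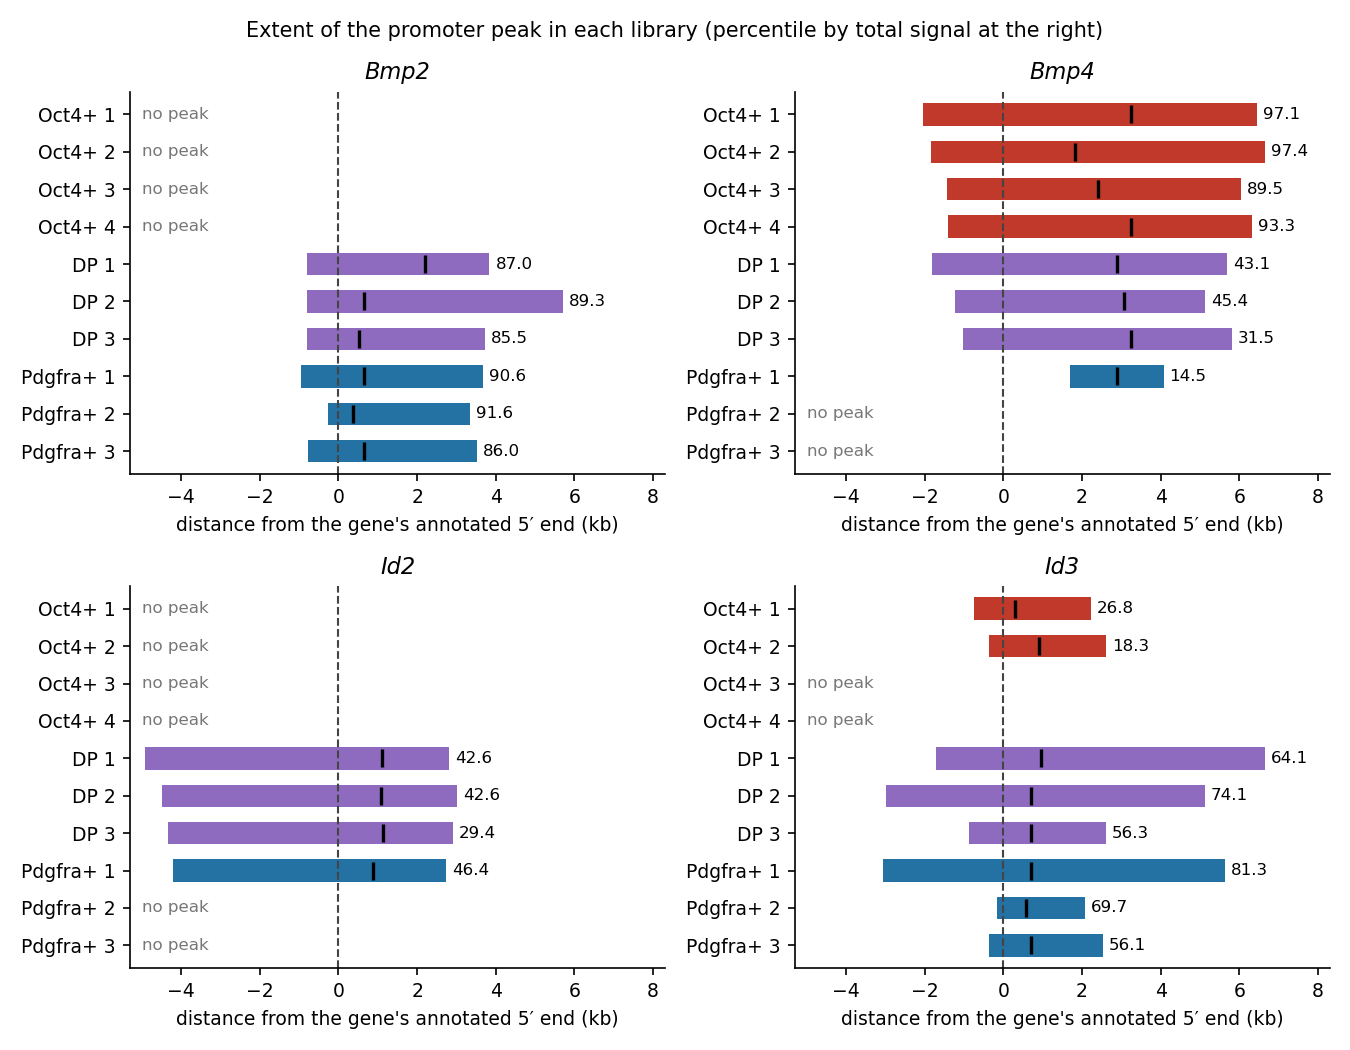
Start and end of the promoter peak of *Bmp2*, *Bmp4*, *Id2* and *Id3* in each library, in kb from the annotated 5′ end of the gene (dashed line, downstream to the right), with a tick at the summit and the percentile by total signal at the right end of the bar. The *Bmp4* bars of Oct4+ and DP nEnd cover nearly the same stretch, and the *Bmp4* bar of Pdgfra+ nEnd replicate 1 starts 1706 bp inside the gene.

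*Bmp7* (ENSMUSG00000008999.7, chr2:172868012-172940321, minus strand, 2 TSS), the third ligand, was marked in Oct4+ nEnd replicate 1 alone, at the 14.7th percentile by total signal and the 3.11th by highest coverage. In the other 9 libraries the nearest peak lay 57.8 to 59.4 kb away, and no consensus list held the promoter.

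By presence alone, *Bmp2* and *Id2* were marked in every DP nEnd library and in no Oct4+ nEnd library. That was 2 of the 10 genes, where 3.99% of 10603 genes marked in either population had this pattern and 0.415% had the reverse. Against Pdgfra+ nEnd the pattern held for *Bmp2* alone (1 of 10, with 2.69% of 11614 genes, and 0.672% in reverse). Any gene so split gets p = 0.0286 from Fisher's exact test, the smallest that 4 against 3 libraries allow, so this p restates presence. None passed adjustment over all genes (adjusted p = 0.649 for both genes against DP nEnd and 0.851 for *Bmp2* against Pdgfra+ nEnd). Between DP and Pdgfra+ nEnd none of the 10 genes was marked in every library of one and none of the other, which 0.214% of 11222 genes were in DP nEnd and 0.00891% in Pdgfra+ nEnd. None of the 10 had a peak throughout Oct4+ nEnd and none at all in another population.

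To place marked and unmarked libraries on one scale, genes were also ranked by total signal over all protein-coding genes of a library, with unmarked genes tied at the bottom, and the logit of that percentile was compared with limma over the 11632 genes marked in at least 1 library. Its mean for *Bmp4* was 98.2 ± 0.352 in Oct4+ nEnd (SD, n = 4), against 72.8 ± 1.26 for DP and 39.0 ± 13.1 for Pdgfra+ nEnd (SD, n = 3 each). *Bmp4* was higher in Oct4+ nEnd than in DP nEnd by 3.01 ± 0.27 logits (SE, limma adjusted p = 3.14e-05) and than in Pdgfra+ nEnd by 4.46 ± 0.27 (adjusted p = 1.06e-06). *Bmp2* stood at 34.1 ± 5.97, the level of unmarked genes, in Oct4+ nEnd, at 93.5 ± 0.332 in DP nEnd and at 94.7 ± 1.81 in Pdgfra+ nEnd. The level of an unmarked gene is set by how many genes the library marks. Where a gene was unmarked in every library of a population, as *Bmp2* in Oct4+ nEnd, it entered the fit only through the others and its difference restates presence, so no p is given for it, and where some libraries were unmarked the difference rests in part on that level. Both differences of *Bmp4* kept their direction and their call under all 15 alternatives run for this fit, each library left out in turn among them. With equal numbers of peaks DP and Pdgfra+ nEnd were both unmarked, and without Pdgfra+ nEnd replicate 1 or with the TSS of protein-coding transcripts alone Pdgfra+ nEnd was, so the calls against them there restate presence.

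DP nEnd and Pdgfra+ nEnd did not differ for either ligand at the threshold. The difference was 1.45 ± 0.28 logits for *Bmp4*, higher in DP nEnd (limma adjusted p = 0.114), and 0.27 ± 0.26 for *Bmp2*, higher in Pdgfra+ nEnd (adjusted p = 0.925). Where replicate 1 of Pdgfra+ nEnd, the one library of that population with a *Bmp4* peak, was left out, or protein-coding transcripts alone were used, only presence was left to compare, since DP nEnd was marked throughout and Pdgfra+ nEnd nowhere. With equal numbers of peaks per library *Bmp4* was unmarked in both populations, and no difference between them was measured.

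**Figure D3:**
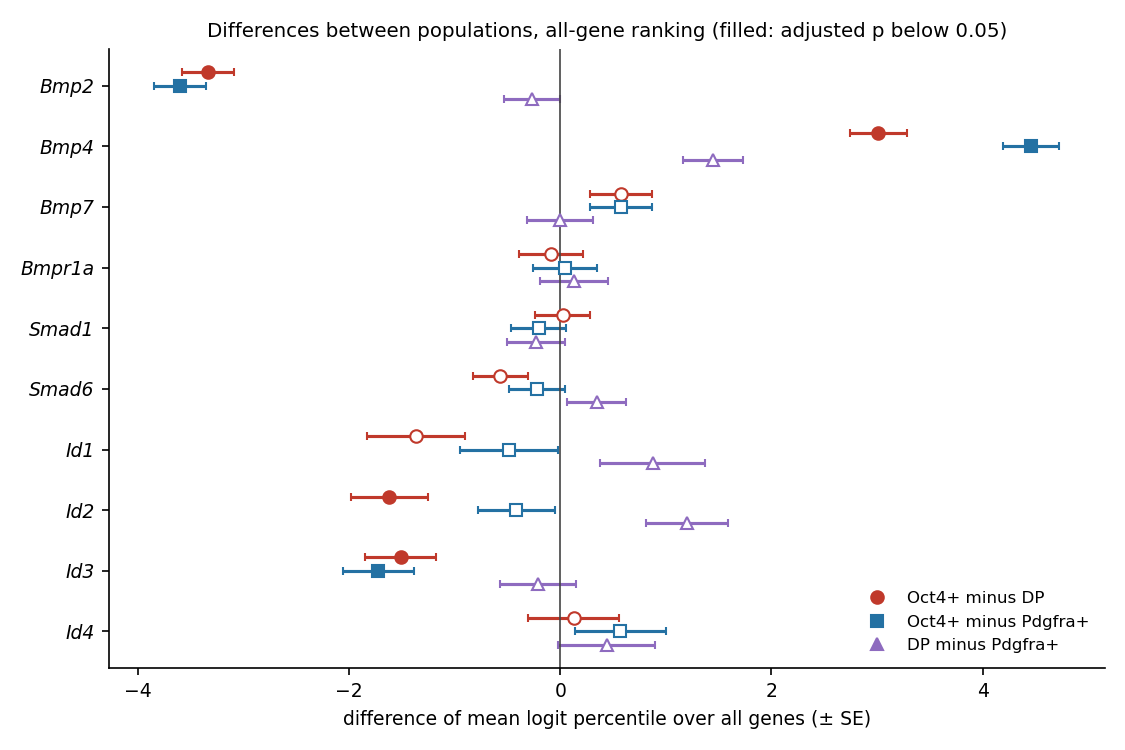
Difference between populations in the mean logit of the all-gene percentile by total signal for each gene, with bars of 1 SE from limma, filled where the adjusted p is below 0.05. *Bmp4* lies to the right, at 3.01 for Oct4+ minus DP nEnd and 4.46 for Oct4+ minus Pdgfra+ nEnd, and *Bmp2* to the left, at -3.33 and -3.60, where Oct4+ nEnd is at the level of unmarked genes, as it is for *Id2*, and a filled point against it restates presence.

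Among the ID targets, *Id3* was more strongly marked in DP and Pdgfra+ nEnd than in Oct4+ nEnd. In Oct4+ nEnd, *Id1*, *Id3* and *Id4* were marked in replicates 1 and 2 only and *Id2* in none. All of *Id1*, *Id2* and *Id3* were marked in every DP nEnd library. Oct4+ nEnd replicates 3 and 4, where no ID gene was marked, were also the libraries with the fewest peaks (3477 and 4887).

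*Id3* (ENSMUSG00000007872.3, chr4:136143497-136145755, plus strand, 3 TSS) was at 26.8 and 18.3 in Oct4+ nEnd replicates 1 and 2. In DP nEnd it was at 64.1, 74.1 and 56.3 and in Pdgfra+ nEnd at 81.3, 69.7 and 56.1. The marked Oct4+ nEnd libraries lay below all 6 others, and the DP and Pdgfra+ nEnd ranges overlapped. Ranked over all genes, *Id3* was lower in Oct4+ nEnd than in DP nEnd by 1.51 ± 0.34 logits (SE, limma adjusted p = 0.00991) and than in Pdgfra+ nEnd by 1.72 ± 0.34 (adjusted p = 0.00341). The first call was lost without DP nEnd replicate 2 (1.41 logits lower, adjusted p = 0.0511), and without Oct4+ nEnd replicate 3 both were kept.

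*Id2* (ENSMUSG00000020644.9, chr12:25093799-25097140, minus strand, 3 TSS) was unmarked in all 4 Oct4+ nEnd libraries. Its percentile by total signal was 42.6, 42.6 and 29.4 in DP nEnd and 46.4 in Pdgfra+ nEnd replicate 1, with no peak in the other 2 Pdgfra+ nEnd libraries. The DP nEnd peaks were 7739, 7507 and 7264 bp wide and began at -4929, -4498 and -4344 bp from the annotated 5′ end (negative upstream), so most of each lay upstream of a gene of 3342 bp. Its mean all-gene percentile was 34.1 ± 5.97 in Oct4+ nEnd (SD, n = 4), the level of unmarked genes, against 72.1 ± 1.61 for DP and 44.0 ± 21.6 for Pdgfra+ nEnd (SD, n = 3 each). Without Pdgfra+ nEnd replicate 1 the Pdgfra+ nEnd libraries were at that level too.

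*Id1* (ENSMUSG00000042745.9, chr2:152736251-152737410, plus strand, 1 TSS) was at 23.2 and 10.2 in Oct4+ nEnd replicates 1 and 2. In DP nEnd it was at 60.6, 59.3 and 57.2, so its DP nEnd libraries were close together. Pdgfra+ nEnd replicates 1 and 3 were at 64.5 and 39.8, and replicate 2 had no peak. The difference between Oct4+ and DP nEnd over all genes, 1.36 ± 0.46 logits lower in Oct4+ nEnd, did not pass (limma adjusted p = 0.063). It passed without Pdgfra+ nEnd replicate 2 (adjusted p = 0.0132), a library that is in neither population. Against Pdgfra+ nEnd it was 0.49 ± 0.46 lower in Oct4+ nEnd (adjusted p = 0.489).

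*Id4* (ENSMUSG00000021379.2, chr13:48261228-48266026, plus strand, 1 TSS) had no peak above 30.6. It was at 30.6 and 14.7 in Oct4+ nEnd replicates 1 and 2, at 10.6 and 6.71 in DP nEnd replicates 1 and 2 and at 15.2 in Pdgfra+ nEnd replicate 1. The marked DP nEnd libraries lay below those of the other populations, which overlapped, and *Id4* was not called in any pair. Its promoter, the most CpG-rich of the 3 printed, was unmarked in the other 5 libraries, where the nearest peak lay 282.1 to 283.9 kb away.

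Of the 10 genes, limma over all genes called 1 higher in Oct4+ nEnd and 3 higher in DP nEnd, against 7.07% and 12.0% of the 11632 genes tested. Of the 3, *Bmp2* and *Id2* were unmarked throughout Oct4+ nEnd. The 2214 genes called in this pair became 1220, 1224 and 1309 without DP nEnd replicates 1, 2 and 3. Between Oct4+ and Pdgfra+ nEnd it called 1 and 2 of the 10, against 11.2% higher in Oct4+ nEnd and 15.8% higher in Pdgfra+ nEnd. Between DP and Pdgfra+ nEnd limma called none of the 10 (2 had an unadjusted p under 0.05), against 0.172% and 0.0172% of all genes. These 22 genes became 2 to 43 with a library left out, 2 of them without DP nEnd replicate 1 and 43 without Pdgfra+ nEnd replicate 1. The median difference of the 10 was -0.33 logits for Oct4+ minus DP nEnd, where that of all genes was -0.18, and -0.21 for Oct4+ minus Pdgfra+ nEnd, where that of all genes was -0.20. None of these counts is read as a property of the list.

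Several of these promoters had a wide peak of low coverage in DP nEnd. *Id1* was 6925, 8090 and 6211 bp wide there, at the 5.17, 18.8 and 11.1th percentile by highest coverage. *Id2* was at 1.80, 3.11 and 3.18 by highest coverage. With *Bmp4*, these 3 genes were between 1.51 and 2.03 times as wide as the median peak of their DP nEnd library and all below the 20th percentile by highest coverage. Among all DP nEnd peaks at least 1.5 times as wide as the median, 11.5 to 12.9% per library were that low, and their median percentile by highest coverage was 69.6 to 71.6. Outside DP nEnd, *Id1* in Pdgfra+ nEnd replicate 3 (1.95 times the median width, at 5.85 by highest coverage) and *Smad6* in Oct4+ nEnd replicate 3 (1.68 times, at 0.575) met both limits. *Id1* was also at 3.61 and 0.920 in Oct4+ nEnd replicates 1 and 2, at 1.24 and 1.34 times the median width. *Smad6* was wide in every DP nEnd library (1.54 to 2.10 times) but at 34.5 to 55.3 by highest coverage, and *Bmp2* and *Id3* were at 37.2 or above in DP and Pdgfra+ nEnd. No test was made of this shape between populations.

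**Figure D4:**
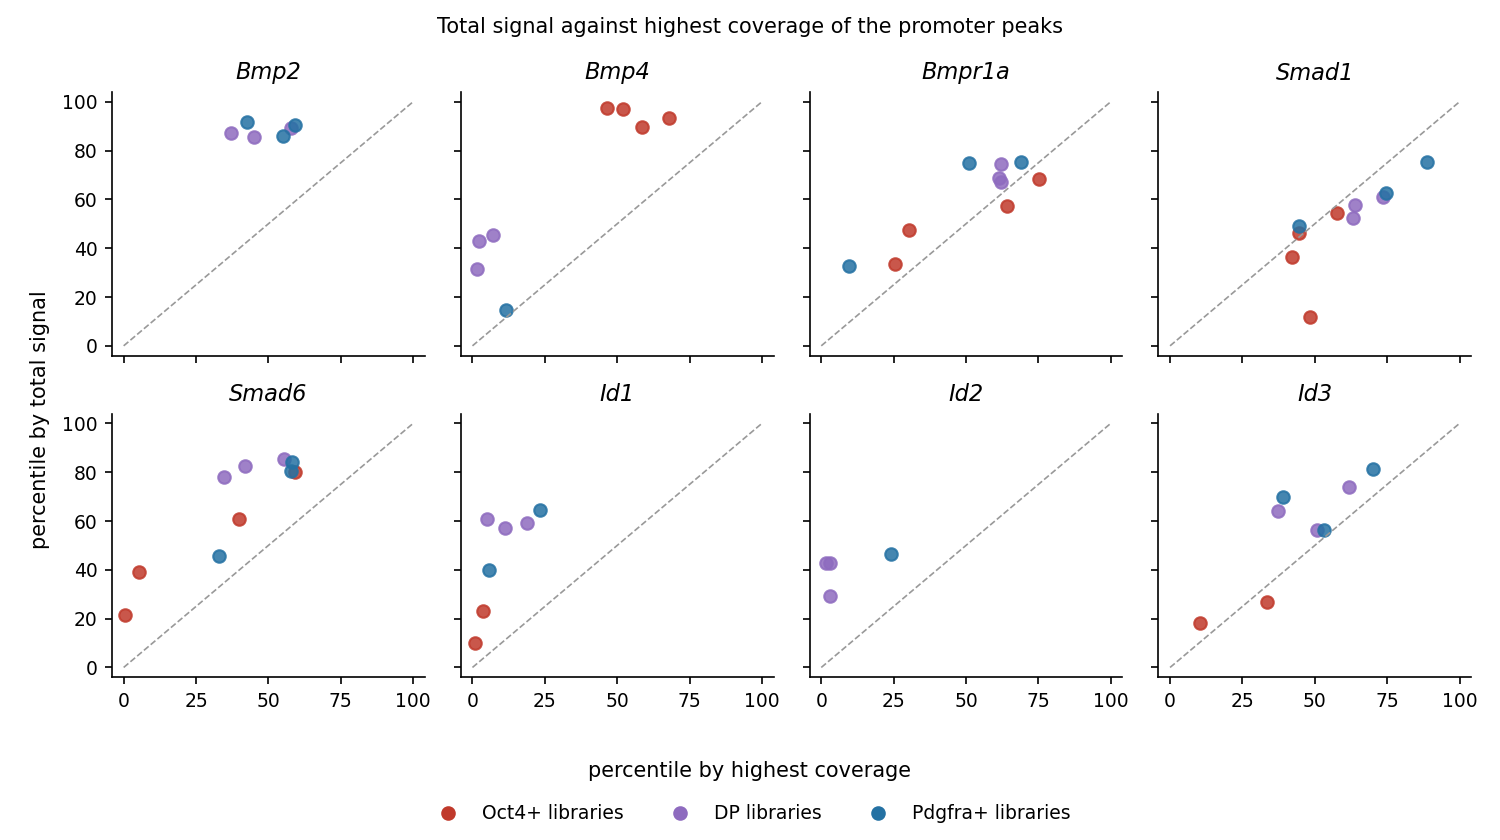
Percentile by total signal against percentile by highest coverage of the promoter peak of 8 genes, one point per library with a peak, coloured by population (red Oct4+, purple DP, blue Pdgfra+ nEnd), with a dashed line where both are equal. *Bmp4*, *Id1* and *Id2* of DP nEnd lie at the left edge, below 20 by highest coverage with totals from 29.4 to 60.6, far above the line.

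The receptor and both SMADs were marked in all 10 libraries, as were 3616 genes in all (16.6%). *Bmpr1a* (ENSMUSG00000021796.15, chr14:34410734-34503341, minus strand, 4 TSS), which encodes a type I receptor for BMP2 and BMP4, was at 47.6, 68.2, 33.7 and 57.1 in Oct4+ nEnd, at 67.1, 68.8 and 74.4 in DP nEnd and at 75.1, 32.7 and 75.5 in Pdgfra+ nEnd. All 3 populations overlapped. The summit of the peak lay 624 to 868 bp after the 5′ end in every library. Its width was 3066 to 4623 bp in Oct4+ nEnd and 4917 to 5629 bp in DP nEnd, ranges that did not overlap, and the centred log2 width was 0.38 ± 0.15 lower in Oct4+ nEnd (SE, limma adjusted p = 0.262).

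*Smad1* (ENSMUSG00000031681.16, chr8:79338395-79399518, minus strand, 3 TSS), whose product is phosphorylated by BMP receptors, was at 46.1, 54.3, 11.7 and 36.4 in Oct4+ nEnd. It was at 52.2, 60.9 and 57.7 in DP nEnd and at 62.5, 49.2 and 75.3 in Pdgfra+ nEnd. Oct4+ nEnd overlapped both other populations through replicate 2, its highest. *Smad6* (ENSMUSG00000036867.7, chr9:63953076-64022059, minus strand, 3 TSS) was at 80.0, 60.9, 21.7 and 38.9 in Oct4+ nEnd, at 82.7, 85.3 and 78.2 in DP nEnd and at 84.4, 45.8 and 80.3 in Pdgfra+ nEnd. Its Oct4+ nEnd range overlapped both others, and that of DP nEnd through replicate 1 alone. The *Smad6* peak was 5898 to 8424 bp wide in 9 libraries and 2185 bp, or 0.991 times the median width of that library, in Pdgfra+ nEnd replicate 2, and its summit lay between -844 and -325 bp from the 5′ end, upstream of it.

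For these 3 genes the fit was made among the genes marked in all 10 libraries, which keeps unequal numbers of peaks out of the ranks. The set itself depends on the library with the fewest peaks, and without Oct4+ nEnd replicate 3 it held 4771 genes. By total signal *Smad6* was lower in Oct4+ nEnd than in DP nEnd by 1.499 ± 0.47 logits (SE, limma adjusted p = 0.0325), and *Smad1* was lower in Oct4+ nEnd than in Pdgfra+ nEnd by 1.59 ± 0.52 (adjusted p = 0.029). Each was 1 call of 3 genes, where 33.0% of the 3616 genes passed between Oct4+ and DP nEnd and 45.0% between Oct4+ and Pdgfra+ nEnd. By highest coverage *Smad6* was lower in Oct4+ nEnd than in Pdgfra+ nEnd by 3.09 ± 0.95 logits (adjusted p = 0.0345), 1 call of 3 where 14.4% of genes passed. Among these genes its mean percentile was 4.8 ± 7.06 in Oct4+ and 19.6 ± 6.66 in Pdgfra+ nEnd (SD). That of *Smad1* by total signal was 7.65 ± 4.63 and 27.3 ± 17.1. Both calls thus rest on values near the bottom of the ranks. Between Oct4+ and DP nEnd *Smad6* by highest coverage did not pass (2.19 ± 0.95 lower in Oct4+ nEnd, limma adjusted p = 0.146, 1 of 3 genes at an unadjusted p under 0.05), where 11.2% of genes did. These shares moved with single libraries. The 33.0% fell to 21.3% without DP nEnd replicate 3, and the 14.4% to 7.36% without Pdgfra+ nEnd replicate 1. The 11.2% became 18.1% without Oct4+ nEnd replicate 1, 6.31% without Oct4+ nEnd replicate 4, and 3.32%, 3.43% and 3.98% without DP nEnd replicates 1, 2 and 3.

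None of these 3 calls held throughout. *Smad6* by total signal was lost without Oct4+ nEnd replicates 2, 3 or 4 or any DP nEnd library (adjusted p from 0.0664 to 0.119). *Smad1* was lost without Oct4+ nEnd replicates 1, 2 or 3 or Pdgfra+ nEnd replicate 3 (from 0.0504 to 0.156). *Smad6* by highest coverage was lost without Oct4+ nEnd replicates 3 or 4 or any Pdgfra+ nEnd library (from 0.0728 to 0.16). Ranked over all genes, *Smad1*, *Smad6* and *Bmpr1a* were called in no pair. The exact permutation tests on the percentiles of these 3 genes among all peaks gave p from 0.0857 to 1 over the 3 pairs.

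By width none of the 3 genes was called by limma in any pair (1 of 3 at an unadjusted p under 0.05 between Oct4+ and DP nEnd, *Bmpr1a*, and 0 in the other pairs), where 0.553% of genes passed between Oct4+ and DP nEnd, 8.82% between Oct4+ and Pdgfra+ nEnd and 0.636% between DP and Pdgfra+ nEnd. Between DP and Pdgfra+ nEnd none of the 3 was called by total signal or by highest coverage either (0 at an unadjusted p under 0.05), where 0.553% and 0.111% of genes passed. With a library left out, the 20 genes called by width between Oct4+ and DP nEnd became 8 to 43, the 319 between Oct4+ and Pdgfra+ nEnd 141 to 393 (141 without Pdgfra+ nEnd replicate 3) and the 23 between DP and Pdgfra+ nEnd 7 to 37, and between DP and Pdgfra+ nEnd the 20 by total signal became 1 to 24 and the 4 by highest coverage 0 to 7.

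The rest of the pathway was read from a list of 54 other genes, of which 33 were marked in at least 1 library and 8 in all 10. That was 14.8% in all 10 libraries, against 16.6% of all protein-coding genes. The list was described by counts of calls in the fit over all genes, where 7.07% of genes were higher in Oct4+ and 12.0% in DP nEnd, 11.2% in Oct4+ and 15.8% in Pdgfra+ nEnd, and 0.172% in DP and 0.0172% in Pdgfra+ nEnd. No set was tested.

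**Figure D5:**
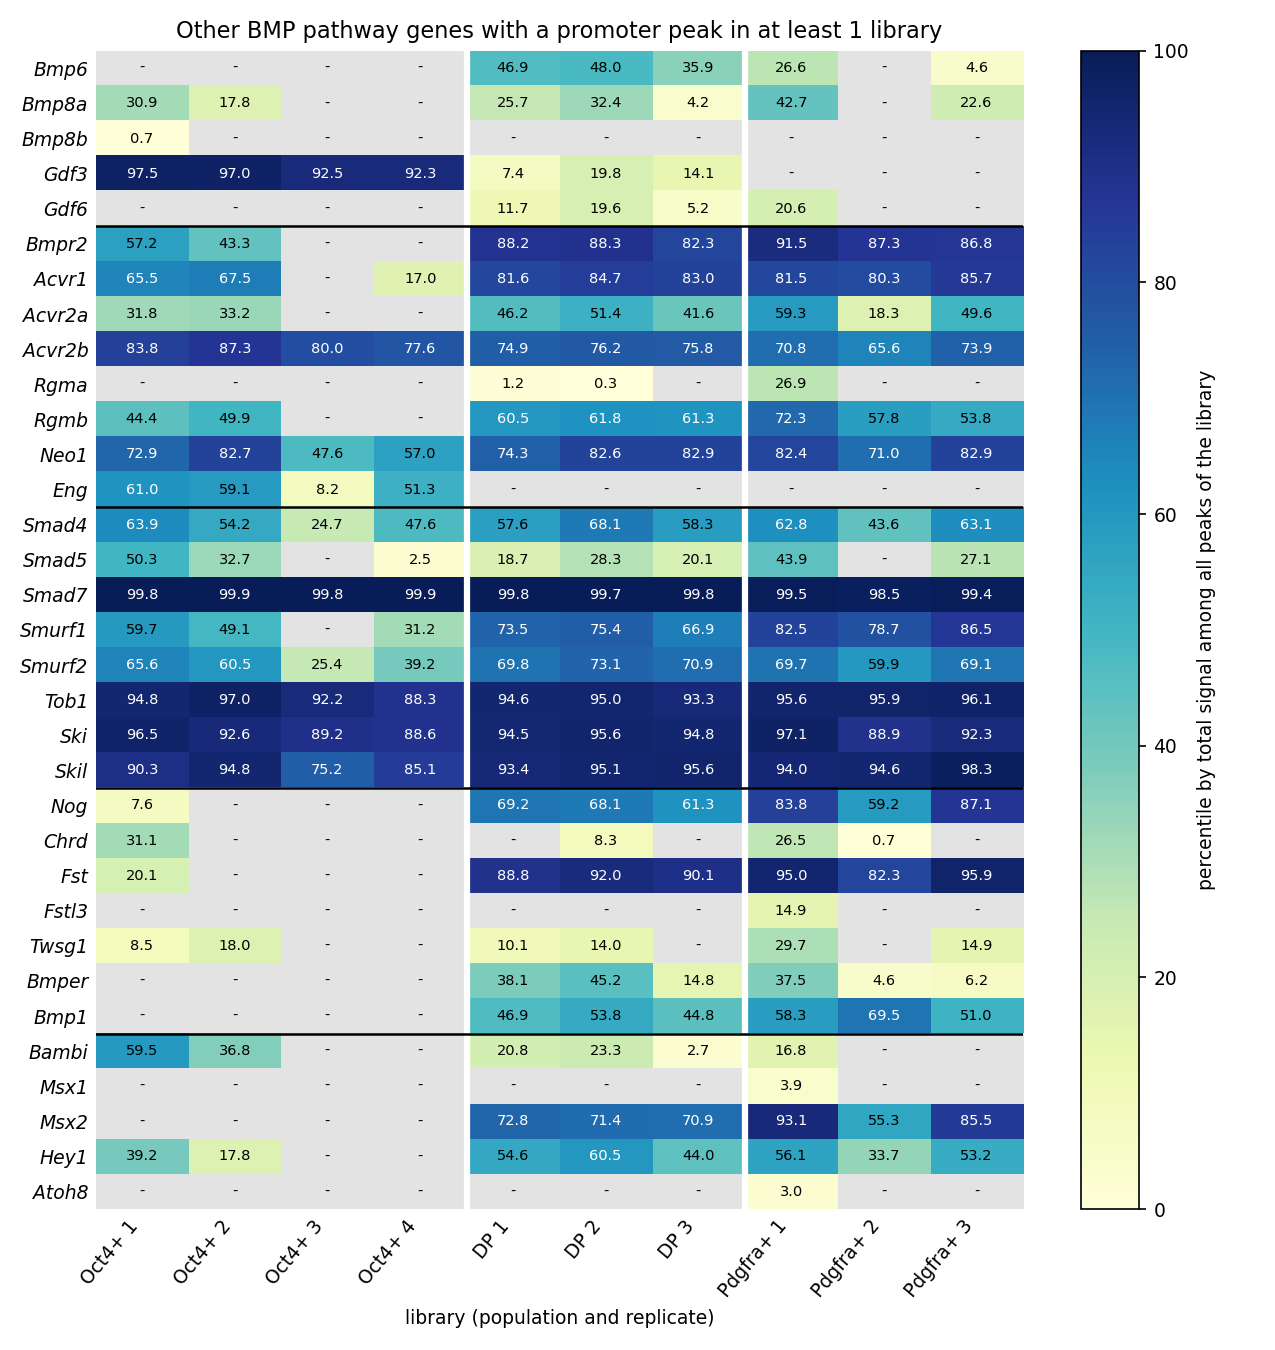
Percentile by total signal of the strongest promoter peak of the 33 other pathway genes with a peak in at least 1 library, by library, with grey cells and a dash where none was found and black lines between ligands, receptors, SMADs, antagonists and targets. *Gdf3* and *Eng* are strongest in Oct4+ nEnd, and *Fst*, *Nog*, *Bmp1* and *Msx2* in DP and Pdgfra+ nEnd.

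Of 12 other ligands, 5 were marked in at least 1 library. With both populations marked, 1 call was made, that of *Gdf3* between Oct4+ and DP nEnd. The other calls restate presence, those of *Bmp6* and *Gdf6*, unmarked in Oct4+ nEnd and marked in all 3 DP nEnd libraries, and those of *Gdf3* against Pdgfra+ nEnd, where it was unmarked. Of these, that of *Gdf6* was lost without any 1 of the DP nEnd libraries, and that of *Gdf3* between DP and Pdgfra+ nEnd held in 2 of 15 alternatives. *Gdf3*, a ligand of pluripotent cells, was like *Bmp4* near the top of the ranks in Oct4+ nEnd and far lower in DP nEnd. It was at 97.5, 97.0, 92.5 and 92.3 in Oct4+ nEnd, at 7.35, 19.8 and 14.1 in DP nEnd and unmarked in Pdgfra+ nEnd. It was 3.53 ± 0.21 logits higher in Oct4+ than in DP nEnd (SE, limma adjusted p = 2.26e-06). *Bmp6*, unmarked in Oct4+ nEnd, was at 46.9, 48.0 and 35.9 in DP nEnd and at 26.6 and 4.61 in Pdgfra+ nEnd replicates 1 and 3. *Bmp8a* was marked in 2 Oct4+, 3 DP and 2 Pdgfra+ nEnd libraries, at 4.23 to 42.7, and was not called.

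Of 10 other receptors and co-receptors, 8 could be tested. Between Oct4+ and Pdgfra+ nEnd 2 were called higher in each, and between Oct4+ and DP nEnd 1 in each. In both pairs 1 call higher in Oct4+ nEnd was *Eng*, which restates presence. *Eng*, the co-receptor endoglin, was marked in all 4 Oct4+ nEnd libraries (61.0, 59.1, 8.20 and 51.3) and in no other. *Bmpr2*, the type II receptor, was at 57.2 and 43.3 in Oct4+ nEnd replicates 1 and 2 and at 82.3 to 91.5 in all DP and Pdgfra+ nEnd libraries. It was lower in Oct4+ nEnd by 2.22 ± 0.43 logits against DP nEnd (SE, limma adjusted p = 0.00418) and by 2.47 ± 0.43 against Pdgfra+ nEnd (adjusted p = 0.00155). *Acvr2b*, a type II receptor for activins and BMPs, was at 77.6 to 87.3 in Oct4+ nEnd, 74.9 to 76.2 in DP nEnd and 65.6 to 73.9 in Pdgfra+ nEnd, 3 ranges that did not overlap. Its difference of 0.91 ± 0.25 logits between Oct4+ and Pdgfra+ nEnd passed (limma adjusted p = 0.0197) but not without Pdgfra+ nEnd replicate 1 (0.75, adjusted p = 0.0772), and that of 0.73 ± 0.25 between Oct4+ and DP nEnd did not pass (adjusted p = 0.06). Among genes marked in all 10 libraries, both passed, at 1.07 ± 0.33 logits against DP nEnd (limma adjusted p = 0.0331) and 1.27 ± 0.33 against Pdgfra+ nEnd (adjusted p = 0.011).

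Of 9 other SMADs and SMAD regulators, 8 could be tested, with 1 called higher in Oct4+ nEnd and 0 in DP nEnd, and 1 each between Oct4+ and Pdgfra+ nEnd (*Smad7*, and *Smurf1* higher in Pdgfra+ nEnd). Of the 9, 6 were marked in all 10 libraries, among them *Smad4*, the common partner of the receptor-activated SMADs. *Smad7*, the second inhibitory SMAD, was among the strongest peaks everywhere, at 99.8 to 99.9 in Oct4+ nEnd, 99.7 to 99.8 in DP nEnd and 98.5 to 99.5 in Pdgfra+ nEnd. Within that narrow range it was 2.28 ± 0.36 logits higher in Oct4+ than in Pdgfra+ nEnd (SE, limma adjusted p = 0.000811). Among the genes marked in all 10 libraries, *Smurf2*, which encodes a ubiquitin ligase for SMADs, was lower in Oct4+ nEnd by 0.91 ± 0.28 logits against DP nEnd (limma adjusted p = 0.0307) and 0.81 ± 0.28 against Pdgfra+ nEnd (adjusted p = 0.0373), and over all genes it was not called (adjusted p = 0.537 and 0.837).

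Of 17 genes for extracellular antagonists and modulators, 7 were marked in at least 1 library. With both populations marked, 2 were called higher in DP nEnd and in Pdgfra+ nEnd than in Oct4+ nEnd, *Fst* and *Nog*, whose products follistatin and noggin bind ligands. For 2 more, *Bmper*, a secreted modulator, and *Bmp1*, a protease that cleaves the antagonist chordin and is no ligand, the calls in the same direction restate presence, and 3 were not called in any pair. *Fst* was marked in 1 Oct4+ nEnd library (20.1) and at 88.8, 92.0 and 90.1 in DP nEnd and 94.97, 82.3 and 95.9 in Pdgfra+ nEnd. *Nog* was likewise marked in 1 Oct4+ nEnd library (7.63) and at 69.2, 68.1 and 61.3 in DP nEnd and 83.8, 59.2 and 87.1 in Pdgfra+ nEnd. With 3 of 4 Oct4+ nEnd libraries unmarked, both differences were called for *Fst* (3.23 ± 0.37 logits lower than DP nEnd, limma adjusted p = 0.000196, and 3.60 ± 0.37 lower than Pdgfra+ nEnd, adjusted p = 4.97e-05). *Nog* was lower by 1.99 ± 0.32 (adjusted p = 0.00143) and 2.57 ± 0.32 (adjusted p = 0.000179). *Bmper* and *Bmp1* were unmarked in Oct4+ nEnd and marked in every other library, and with equal numbers of peaks per library *Bmp1* was unmarked in DP nEnd too. The 10 antagonists that could not be tested were unmarked in all 10 libraries.

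Of 6 other BMP targets, 5 could be tested and 2 were called higher in DP nEnd and in Pdgfra+ nEnd than in Oct4+ nEnd, *Hey1* and *Msx2*. *Msx2*, a homeobox gene whose calls restate presence, was unmarked in Oct4+ nEnd and at 72.8, 71.4 and 70.9 in DP nEnd and 93.1, 55.3 and 85.5 in Pdgfra+ nEnd. *Bambi*, which encodes a pseudoreceptor, was marked in 2 Oct4+, 3 DP and 1 Pdgfra+ nEnd libraries and was not called. The calls of *Hey1*, *Acvr1* and *Smurf1* and of *Smad7* between Oct4+ and DP nEnd had limma adjusted p from 0.0215 to 0.0447, and each was lost in at least 2 fits with 1 library left out. With the replicate number as a block, the calls of *Hey1* (limma adjusted p = 0.126) and *Acvr1* (adjusted p = 0.0793) against Pdgfra+ nEnd and of *Hey1* (adjusted p = 0.121) and *Smad7* (adjusted p = 0.0762) against DP nEnd were lost. Replicate 4 was found in Oct4+ nEnd alone, so the block takes that library out of these differences. Leaving it out gave the same differences as the block, and these calls were lost there too.

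Over the 10 libraries, *Bmp2* was the gene of the 10 whose population means of the all-gene percentile differed most (by 60.6 points), and among the genes most like it by Pearson correlation of that percentile were *Flt1*, *Adora1*, *Hs3st1* and *Foxa2* (r from 0.9993 to 0.9996). These 4 were unmarked in Oct4+ nEnd and marked in every DP and Pdgfra+ nEnd library, a pattern that 269 genes shared, and the correlation rests on that pattern and on the tied level of unmarked genes in each library. A peak throughout Oct4+ and DP nEnd and none in Pdgfra+ nEnd was the pattern of 23 genes, and *Bmp4* was not among them because of Pdgfra+ nEnd replicate 1. Genes marked as *Bmp4* was, with 1 Pdgfra+ nEnd library, were not counted.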

How the data were processed

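H3K4me3 CUT&Tag libraries of Oct4+ nEnd (4), DP nEnd (3) and Pdgfra+ nEnd (3) were grouped by their titles. The submitters' processing notes name bcl2fastq 2.19.1, Bowtie2, SAMtools 1.12, deepTools, bedtools 2.26.0 and SEACR, on mm10. The deposited lists give, for each stringent SEACR peak, total signal (summed coverage) and highest coverage, without scaling of libraries to each other. Positions alone come from the DiffBind consensus lists, which the study made per population. Total signal is summed over the width of a peak and highest coverage is not, and both grow with depth, hence ranks within a library.

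Tied values share their mean rank. The logit of the percentile, or log2 width in bp minus the library median, was fitted with limma 3.58.1 (R 4.3.3) over the 3616 genes marked in all 10 libraries, with Benjamini-Hochberg adjustment over all genes and a threshold of 0.05. That set holds 3 of the 10 genes, so the fit over 11632 genes, an alternative to the first, is given as a result, and its own alternatives were added after seeing the data. On simulated data with 200 of 3616 genes changed by 2 logits in Oct4+ nEnd, the fit recovered the size of the change. The labels do not say from which culture each library came, and p-values measure the spread between these libraries. The study describes its genome tracks of the mark as made from 3 biological replicates per population, while 4 Oct4+ nEnd libraries were used here. The gene lists and the 10 genes were chosen with earlier results of these data known, and other pathway genes were named up to 4 per group, called ones first by adjusted p. Of the 5 genes most like *Bmp2*, 1 is not reported here. Replicate numbers were shared by the populations. Deviations of libraries of the same number correlated at 0.23, 0.15 and 0.14 between Oct4+ and Pdgfra+ nEnd (replicates 1 to 3). For DP nEnd they correlated at 0.12, -0.12 and 0.11 with Oct4+ nEnd and at 0.11, -0.10 and 0.21 with Pdgfra+ nEnd. No block was used in the main fits, and a fit with the replicate number as a block was run as an alternative.

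Alternatives were windows of 2500 bp, protein-coding transcripts, 50% of the window covered, equal numbers of peaks (3477), a replicate block, another scale, summed peaks, consensus lists and each library left out. Other tools were Python 3.11.15 with pandas 2.3.3, matplotlib 3.10.9, numpy 2.4.6 and scipy 1.17.1.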

Additional observations from a re-analysis of the deposited data

How the results depend on the processing

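The depth is unknown, so no peak in Oct4+ nEnd replicates 3 and 4 is not an absence of the mark, and with 3 libraries in a population single libraries decided several calls. The all-gene calls of *Bmp4* against Oct4+ nEnd and of *Id3* between Oct4+ and Pdgfra+ nEnd held in all 15 alternatives, but these restate presence where 1 population was unmarked throughout, for *Bmp4* in up to 3 alternatives and for *Id3* with equal numbers of peaks. With equal numbers of peaks per library, none of *Bmpr1a*, *Smad1* and *Smad6* was left among the genes tested, so all counts of calls among them were 0, and with 50% of the window covered 2 were left and the count by total signal between Oct4+ and Pdgfra+ nEnd was 0. With all genes in place of those marked throughout, the counts by total signal were 4 and 3, of which 2 and 1 (*Bmp2* in both and *Id2*) restate presence. With each library left out in turn, they ran from 0 to 1 between Oct4+ and DP nEnd and from 0 to 2 between Oct4+ and Pdgfra+ nEnd by total signal, from 0 to 1 in both by highest coverage, and from 0 to 2 between DP and Pdgfra+ nEnd over all genes, where protein-coding transcripts gave 1 (*Bmp4*), all against a population then unmarked throughout.

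The count of genes marked throughout Oct4+ nEnd and unmarked in DP nEnd became 1 with equal numbers of peaks, and that against Pdgfra+ nEnd became 1 with equal numbers or protein-coding transcripts (*Bmp4*), 2 with the consensus lists (*Bmp4* and *Id4*) and 0 to 1 with a library left out. The count marked in Pdgfra+ and unmarked in Oct4+ nEnd became 0 with 50% cover and 2 with equal numbers (*Bmp2* and *Id3*). The count marked in DP and unmarked in Pdgfra+ nEnd became 1 with protein-coding transcripts, 3 with the consensus lists (*Bmp4*, *Id2* and *Id4*) and 0 to 2 with a library left out. With equal numbers of peaks, *Bmp1* in Oct4+ and DP nEnd, *Id1* in Oct4+ and Pdgfra+ nEnd and *Bmp4* and *Gdf3* in DP and Pdgfra+ nEnd were unmarked in both populations, so their values of opposite sign (0.022, 0.0134 and, for the last pair, -0.0086 each) are gaps between the levels of unmarked genes and measure no difference. With 50% cover the sign of *Bmp2* between DP and Pdgfra+ nEnd reversed (1.09, not called), with 1 Pdgfra+ nEnd library unmarked. For *Id2* between Oct4+ and Pdgfra+ nEnd the difference ran from -0.72 to 0.11 with a library left out, and was 0.11 without Pdgfra+ nEnd replicate 1, where both were unmarked. The cause of the other changes was not tested.

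With the replicate number as a block, *Smad6* by total signal between Oct4+ and DP nEnd was no longer called (-1.38, limma adjusted p = 0.0523) and *Smad1* was, so the count stayed at 1. Between Oct4+ and Pdgfra+ nEnd, where libraries of the same number correlated at over 0.1, the block changed no call of the 10 genes. Among named pathway genes over the 3 comparisons, it lost 5 calls (*Hey1* in both with Oct4+ nEnd, *Acvr1*, *Smad7* and *Gdf3*). All of these were also lost without Oct4+ nEnd replicate 4. The block takes that library out of the differences, because no other population has a replicate of that number. Over all genes tested, which were 2352 with equal numbers against 3616, calls by total signal between Oct4+ and DP nEnd were 713 (30.3%) with equal numbers against 1194 (33.0%), and between Oct4+ and Pdgfra+ nEnd 978 (41.6%) against 1626 (45.0%). Between DP and Pdgfra+ nEnd they were 0 with equal numbers, 5 with the block and 12 on another scale, against 20. By highest coverage they were 322 (13.7%) with equal numbers against 521 (14.4%) between Oct4+ and Pdgfra+ nEnd, and 0 with equal numbers and 2 on another scale against 4 between DP and Pdgfra+ nEnd. By width, where equal numbers gave 0.425%, 6.55% and 0.553% of genes against 0.553%, 8.82% and 0.636% in the 3 comparisons, they were 10, 5 and 4 against 20 between Oct4+ and DP nEnd with equal numbers, the block and another scale, 154 and 207 against 319 between Oct4+ and Pdgfra+ nEnd with equal numbers and the block, and 13, 15 and 7 against 23 between DP and Pdgfra+ nEnd. In the fit over all genes, calls between DP and Pdgfra+ nEnd were 11 with windows of 2500 bp, 14 with 50% cover, 103 (1.62% of 6344) with equal numbers and 0 with the block, against 22 (0.189%).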
